A study of Homo sapiens with 12 samples.

Results

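Of the 12 RNA-seq libraries of this series, 8 are described here: the 4 from cells given an alkyne form of 4-hydroxynonenal (HNE) and the 4 from untreated cells, compared with the hairpin line as a covariate. They were chosen by treatment label alone, and no measured value entered the choice. The series asks, by its title, what the RNA-binding protein HuR does to the transcriptome of cells under electrophiles and oxidants. All cells were HEK293T, a human embryonic kidney line that carries the SV40 large T antigen, made into lines by lentiviral hairpin transduction and puromycin selection. Untreated and treated groups therefore share the hairpin vector and the selection, and each line is the product of a single hairpin sequence.

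The groups used were shControl untreated, shControl with 25 µM HNE for 18 h, shHuR untreated and shHuR with 25 µM HNE for 18 h, each with 2 libraries that the labels call biological replicates. The 4 libraries from cells given 225 µM H2O2 for 18 h (2 per line) serve only as another reference. No solvent-treated group is among the labels. The untreated cells are titled neg, and whether they received solvent is not known here. The labels do not say whether replicates came from separate passages, so the p-values measure the spread between these cultures. RNA amounts here are relative: a change in the mix of cells and a change in RNA per cell cannot be told apart.

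HNE is an aldehyde formed when membrane lipids are oxidised, and it reacts with cysteine residues of proteins. One such protein is KEAP1, which otherwise marks the transcription factor NRF2 (gene NFE2L2) for destruction; when KEAP1 is modified, NRF2 accumulates and, with a small MAF partner, binds antioxidant response elements near genes of heme breakdown, iron storage, thioredoxin, glutathione and NADPH supply. Electrophiles can also set off the heat-shock response (factor HSF1), the integrated stress response (ATF4), endoplasmic reticulum stress signalling and p53, and each of these has a list of known target genes that is described below.

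The 8 libraries held 24855946 to 29907256 counts in total, with 17524 to 18301 genes having at least 1 count. Small RNA genes took 4.10% to 4.58% of counts with HNE and 4.10% to 4.85% without. ELAVL1, which encodes HuR, stood at 85.8 to 97.2 CPM (counts scaled to the library total) in the 4 shControl libraries and at 69.3 to 73.2 CPM in the 4 shHuR libraries. The ranges lay apart in the direction of the line labels, but most ELAVL1 RNA remained in shHuR cells. HuR protein is not measured by these counts. The 7 genes listed as markers of HEK293 cells summed to 820 to 1020 CPM with HNE and 777 to 996 CPM without, most of it VIM, LIN28B, CDH2 and NEFL, whereas the renal transcription factors PAX2 and LHX1 averaged 0.367 to 0.917 CPM. Marker lists of other cell types summed alike in both groups: fibroblast 8.65 to 11.9 CPM with HNE against 9.84 to 12.5, epithelial 45.6 to 54.7 against 47.3 to 52.9 with KRT19 at 0, blood 5.94 to 9.38 against 6.14 to 6.82 with HBB at 0, and endothelial 0.200 to 0.657 against 0.238 to 0.714. The 2 libraries of HNE-treated shControl cells differed more from each other than any other pair of the series (chi-square per degree of freedom 21.9, against 2.96 to 10.6 for the other 5 pairs), and the counts that moved without either are given beside the result.

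With HNE a small group of genes rose and another fell. With edgeR's quasi-likelihood test and Benjamini-Hochberg adjustment over all 15780 genes tested, 39 genes (0.247%) had an adjusted p under 0.05, 16 higher (0.101%) and 23 lower (0.146%). Of the 16 that rose, 10 are on the NRF2 lists, namely HMOX1, FTL, FTH1, TXNRD1, GCLM, GSR, NQO1, ME1, PIR and SQSTM1, and 0 of the 23 that fell are. These lists were written with earlier results of the same data known, so the count describes the list and is no independent evidence. All 4 HNE libraries lay above all 4 untreated ones for 15 of the 16 genes that rose (background 2.25% of genes tested) and below them for 18 of the 23 that fell (background 2.34%). Those genes were picked by a test on the same libraries, so their separation follows largely from that choice. Here and for single genes below it is a description and no further evidence. Changes were small: HMOX1 alone passed 2-fold, the median log2 fold change of the genes that rose was 0.56, and that of the genes that fell was -0.47. At an unadjusted p under 0.05 there were 1942 genes (12.3%), and the median over all genes was 0.00022. The count rested on single libraries. Leaving out replicate 2 of shControl with HNE gave 168 calls, leaving out replicate 1 of the same group gave 64, and leaving out any of the other 6 libraries gave 3 to 11. DESeq2 called 181 genes, all 39 among them, so its counts on the lists below have a larger background than those of edgeR. All 39 kept their direction with each of the 8 libraries left out.

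Where 4 values of a group are given in a row, those of the shControl libraries come before those of the shHuR libraries. HMOX1 encodes heme oxygenase 1, which breaks heme down to biliverdin, carbon monoxide and free iron, and it rose the most of the genes that passed the test. In shControl cells it stood at 9.33 and 10.6 CPM untreated and at 25.1 and 30.3 CPM with HNE. In shHuR cells the values were 11.04 and 10.8 CPM untreated and 25.7 and 31.8 CPM with HNE. Every HNE library was thus far above every untreated one, in both lines. The log2 fold change was 1.44 (SE 0.0961, edgeR adjusted p = 9.83e-06), a 2.71-fold rise. HMOX1 passed the threshold in all 21 alternative analyses, and its lowest log2 fold change among them was 1.32.

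The iron released by heme oxygenase is stored in ferritin, and both ferritin chains rose. FTL, the light chain, stood at 113 and 113 CPM in untreated and 196 and 182 CPM in HNE-treated shControl cells, and at 109 and 131 CPM in untreated and 208 and 233 CPM in HNE-treated shHuR cells. No HNE value came near an untreated one, and the log2 fold change was 0.81 (SE 0.0659, edgeR adjusted p = 6.24e-05). FTH1, the heavy chain, moved from 73.2, 77.8, 79.1 and 87.5 CPM untreated to 94.4, 113, 99.7 and 108 CPM with HNE (log2 fold change 0.39, SE 0.0699, adjusted p = 0.0366). The 2 groups were separate for FTH1 too, but by a narrower gap. Both ferritin genes have many processed pseudogenes, and how the authors' counting shared such reads is not given in the sources used here, so their levels are uncertain. BLVRB, a biliverdin reductase that acts after heme oxygenase, had a log2 fold change of 0.36 (adjusted p = 0.153), while BLVRA, the main biliverdin reductase, had 0.02 (adjusted p = 0.948). In all, edgeR called 3 of the 8 tested heme and iron genes higher (background 0.101%) and 0 lower (background 0.146%). Of the 8 estimates 6 were above 0 and 2 below, with a median of 0.22. DESeq2 also called 3 higher, and limma 2 of 7 or, unfiltered, 1 of 8.

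**Figure D1:**
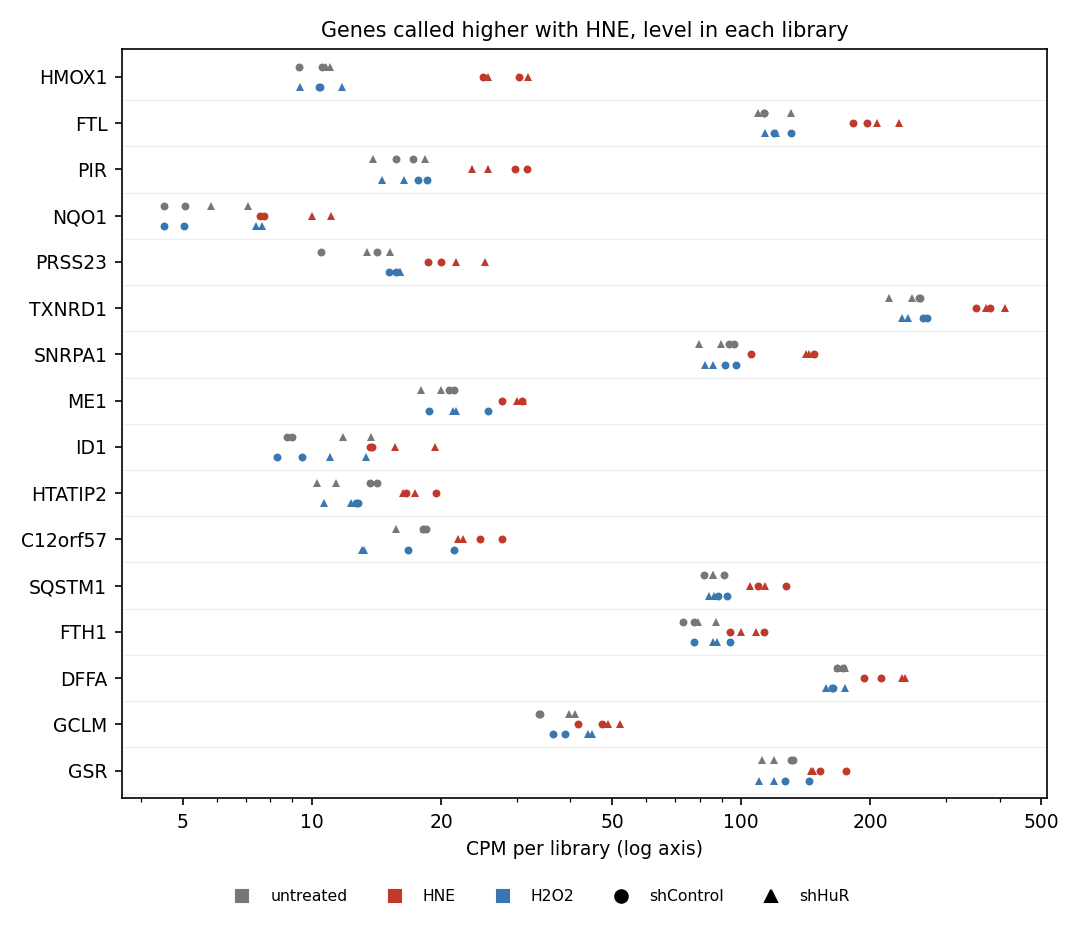
CPM on a log axis in each of the 12 libraries for the 16 genes that rose with HNE, 1 row per gene; colour gives the treatment (grey untreated, red HNE, blue H2O2) and shape the line (circle shControl, triangle shHuR). The red points lie right of the grey ones in all genes except ID1, where the lowest HNE value (13.7 CPM) is just below the highest untreated value (13.8 CPM), and HMOX1 has the widest gap.

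TXNRD1 encodes thioredoxin reductase 1, which passes electrons from NADPH to thioredoxin. It stood at 260 and 261 CPM in untreated and 353 and 381 CPM in HNE-treated shControl cells. In shHuR cells it stood at 251 and 221 CPM untreated and 372 and 412 CPM with HNE. The lowest HNE value was well above the highest untreated value, and the log2 fold change was 0.62 (SE 0.0664, edgeR adjusted p = 0.00136). It was the only one of 6 tested thioredoxin genes to pass by edgeR, while DESeq2 called 3 higher and limma 0. The list median was 0.26 (0.21 to 0.30 with 1 library left out), and 5 of the 6 estimates were above 0. TXN, thioredoxin itself, had a log2 fold change of 0.30 (adjusted p = 0.146), PRDX1, a peroxiredoxin that thioredoxin recharges, had 0.27 (adjusted p = 0.115), and SRXN1, which repairs overoxidised peroxiredoxin, had 0.24 (adjusted p = 0.200).

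Of the glutathione genes, GCLM and GSR were called higher. GCLM, the modifier subunit of the enzyme that limits glutathione synthesis, stood at 33.8, 34.0, 39.8 and 40.9 CPM untreated and at 47.3, 41.7, 49.1 and 52.2 CPM with HNE. The lowest HNE value lay just above the highest untreated one (log2 fold change 0.36, SE 0.0625, edgeR adjusted p = 0.0344). This was the least stable of the 39 calls, past the threshold in 9 of 21 alternative analyses. GSR, which reduces oxidised glutathione, stood at 131, 132, 119 and 112 CPM untreated and 152, 175, 147 and 145 CPM with HNE, again without overlap (0.33, SE 0.0571, adjusted p = 0.0344). The catalytic partner of GCLM did not pass: GCLC had 0.09 (SE 0.0892, adjusted p = 0.727), with untreated and HNE values interleaved from 43.8 to 57.6 CPM. SLC7A11, the cystine importer that feeds glutathione synthesis, had 0.22 (SE 0.0593, adjusted p = 0.164). Together edgeR called 2 of 11 tested glutathione genes higher (background 0.101%) and 0 lower (background 0.146%). Of the 11 estimates 9 were above 0, and the median was 0.09 (0.08 to 0.17 with 1 library left out). DESeq2 called 3 higher, while limma called 0, as did edgeR with the replicate number as a block.

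ME1, malic enzyme, makes NADPH in the cytosol, and NQO1 is a quinone reductase much used as a readout of NRF2. ME1 stood at 21.4, 20.8, 17.9 and 20.0 CPM untreated and at 27.7, 30.9, 31.1 and 30.1 CPM with HNE (log2 fold change 0.58, SE 0.0766, edgeR adjusted p = 0.00740). NQO1 was expressed at a low level, with 4.52 and 5.07 CPM in untreated and 7.55 and 7.71 CPM in HNE-treated shControl cells, and 7.10 and 5.82 CPM in untreated and 10.0 and 11.1 CPM in HNE-treated shHuR cells. Its level differed between the lines, but within each line both HNE values were above both untreated ones (0.69, SE 0.110, adjusted p = 0.0270). TKT, transketolase, a further gene of the NADPH list, had -0.08 (adjusted p = 0.524). Of the 6 NADPH genes and the 5 quinone and aldehyde genes tested, ME1 and NQO1 were the only ones called by edgeR or DESeq2. By limma 0 of either list were called. ME1 passed the threshold in 16 of 21 alternative analyses and NQO1 in 11. The list medians were -0.02 and -0.04. Another 6 listed quinone and aldehyde genes, among them AKR1B10, AKR1C1 and UGT1A6, had counts too low to be tested.

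PIR, pirin, is an iron-binding nuclear protein, and SQSTM1, p62, is an autophagy receptor that can hold KEAP1; both are targets of NRF2 as well. PIR stood at 15.7 and 17.2 CPM in untreated and 29.7 and 31.6 CPM in HNE-treated shControl cells, and at 18.3 and 13.9 CPM in untreated and 23.5 and 25.7 CPM in HNE-treated shHuR cells (edgeR log2 fold change 0.76 with SE 0.0976, adjusted p = 0.00635). Some of its deposited counts were fractional, so its level is uncertain. SQSTM1 stood at 91.3, 81.8, 85.8 and 85.9 CPM untreated and 109, 127, 105 and 114 CPM with HNE, without overlap (0.40, SE 0.0651, adjusted p = 0.0270). The switch itself did not pass the test: NFE2L2 had 0.12 (SE 0.0797, adjusted p = 0.560), KEAP1 0.14 (SE 0.0722, adjusted p = 0.458), the repressor BACH1 0.08 (adjusted p = 0.575) and the partner MAFG 0.22 (adjusted p = 0.314). On the NRF2 regulator list edgeR called 2 of 12 tested genes higher, PIR and SQSTM1 (background 0.101%), and 0 lower. Of the 12 estimates 11 were above 0 (background 50.1%), with a median of 0.12. DESeq2 also called 2 higher, and limma 0. NRF2 is controlled mainly through its protein, which RNA counts do not measure. Over the 5 target lists together (regulators apart), edgeR called 8 of 36 tested genes higher (background 0.101%) and 0 lower (background 0.146%). DESeq2 called 11 higher and 0 lower, out of 181 genes it called in all. With the replicate number as a block edgeR called 5 and 0, out of 14 in all. By limma 2 of 32 were called higher, and 1 of 43 unfiltered. Of the 36 genes, 24 had an estimate above 0 (66.7%, against 50.1% of all genes tested). The median was 0.09, and 0.08 to 0.12 with 1 library left out.

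Among the genes that rose, TXNRD1, PIR, ME1 and GCLM held the core of the antioxidant response element, TGACNNNGC on either strand, in their RefSeq promoters on GRCh38.p14, taken as 250 bases before to 50 after the gene start. These windows are shown because the 4 genes are NRF2 targets that rose. Capitals mark the match, each window is read in the direction in which the core reads 5′ to 3′, and the authors' counts use another build.
TXNRD1, upstream promoter, chr12:104215670-104215698, plus strand: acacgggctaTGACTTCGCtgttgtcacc
TXNRD1, upstream promoter, chr12:104215761-104215789, minus strand: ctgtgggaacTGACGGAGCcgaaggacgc
TXNRD1, downstream promoter, chr12:104286920-104286948, minus strand: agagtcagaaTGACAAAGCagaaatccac
PIR, chrX:15493289-15493317, plus strand: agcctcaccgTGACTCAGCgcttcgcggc
ME1, chr6:83431170-83431198, minus strand: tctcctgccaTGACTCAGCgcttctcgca
ME1, chr6:83431022-83431050, plus strand: gctgctggggTGACGGTGCtgactgcagc
GCLM, chr1:93909446-93909474, plus strand: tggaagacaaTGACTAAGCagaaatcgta
In each gene named above the level rose with HNE, and all 4 HNE libraries lay above all 4 untreated ones.

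Counted by gene, with a match in any of its promoters, 4 of 13 genes that rose and had a RefSeq entry held the core (30.8%), against 2 of 17 genes that fell (11.8%) and 19.1% of 11020 tested genes with an entry. Counted by promoter, 13.3% of all 35116 held it. FTL, NQO1 and SQSTM1 were searched with 0 matches, and HMOX1, GSR and FTH1 had no entry. On the 5 NRF2 target lists it was 13 of 26 genes (50.0%), on the ATF4 list 9 of 19 (47.4%) and on the p53 list 6 of 15. In promoters of genes that fell the core occurred in CYP4V2 and RPS6KL1. A match describes letters in this window only and is not a measured binding site.

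The other genes that rose were not on the NRF2 lists. PRSS23, a secreted serine protease, stood at 10.5, 14.1, 15.2 and 13.5 CPM untreated and 20.0, 18.6, 21.6 and 25.2 CPM with HNE (log2 fold change 0.68, SE 0.0997, edgeR adjusted p = 0.0168). Its HNE values were all above the untreated ones. SNRPA1, a protein of the U2 small nuclear ribonucleoprotein, stood at 93.6, 96.5, 89.6 and 79.9 CPM untreated and 105, 148, 141 and 144 CPM with HNE (0.58, SE 0.0973, adjusted p = 0.0305). The value of 105 CPM, from replicate 1 of the HNE-treated shControl cells, was far below the other HNE values; leaving it out gave 0.71. SNRPA1 was also the only one of 23 tested spliceosome genes called by edgeR (background 0.101% higher) or DESeq2. The list median was 0.05, and -0.01 without replicate 2 of the same group. ID1, an inhibitor of helix-loop-helix transcription factors, had 0.54 (adjusted p = 0.0366), HTATIP2 had 0.50 (adjusted p = 0.0410), C12orf57 had 0.45 (adjusted p = 0.0348) and DFFA, the inhibitor of the caspase-activated DNase, had 0.37 (adjusted p = 0.0270). The HNE libraries lay above all untreated ones for HTATIP2, C12orf57 and DFFA but overlapped for ID1, where the lines differ in level.

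The genes that fell belonged to no single list. HTRA1, a secreted serine protease, stood at 13.1, 13.7, 14.2 and 11.8 CPM untreated and 8.79, 9.58, 8.18 and 6.83 CPM with HNE, and fell by 0.67 on the log2 scale (SE 0.106, edgeR adjusted p = 0.0270). FN1, fibronectin, stood at 49.7, 51.6, 52.5 and 58.1 CPM untreated and 40.4, 39.9, 44.3 and 42.1 CPM with HNE (-0.34, SE 0.0595, adjusted p = 0.0344). In both genes all HNE values were below all untreated ones. They were the 2 called by edgeR and by DESeq2 among 26 tested secreted and matrix genes (3 by edgeR without replicate 2 of HNE-treated shControl cells), of which 7 had an estimate above 0 (median -0.10). Over all genes tested, edgeR called 0.146% lower, and 50.1% had an estimate above 0. HTRA1 was known to fall when the secreted and matrix list was written. IGFBP5, an insulin-like growth factor binding protein, and SULF1, an extracellular heparan sulfate sulfatase, were not on the list and fell by 0.67 (adjusted p = 0.0377) and 0.63 (adjusted p = 0.0377) on the log2 scale. Both overlapped between groups: the highest HNE value of IGFBP5 was 25.5 CPM and its lowest untreated value 24.7 CPM.

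Enzymes of lipid and glycogen metabolism were among the lower genes. CYP4V2, a fatty acid hydroxylase, stood at 18.0 and 18.1 CPM in untreated and 12.3 and 10.0 CPM in HNE-treated shControl cells, and at 15.1 and 16.3 CPM in untreated and 10.8 and 10.3 CPM in HNE-treated shHuR cells (edgeR log2 fold change -0.63 with SE 0.0880, adjusted p = 0.0110). CPT2, which hands fatty acids to mitochondrial oxidation, stood at 39.3, 41.5, 35.9 and 38.1 CPM untreated and 32.2, 32.4, 27.5 and 27.4 CPM with HNE (-0.38, SE 0.0631, adjusted p = 0.0313). HNE and untreated values were apart in both genes. GBE1, the glycogen branching enzyme, fell by 0.38 on the log2 scale (adjusted p = 0.0366) with overlapping groups, its untreated values running from 41.5 to 54.4 CPM and its HNE values from 32.9 to 43.0 CPM. These 3 were grouped after their values were seen.

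**Figure D2:**
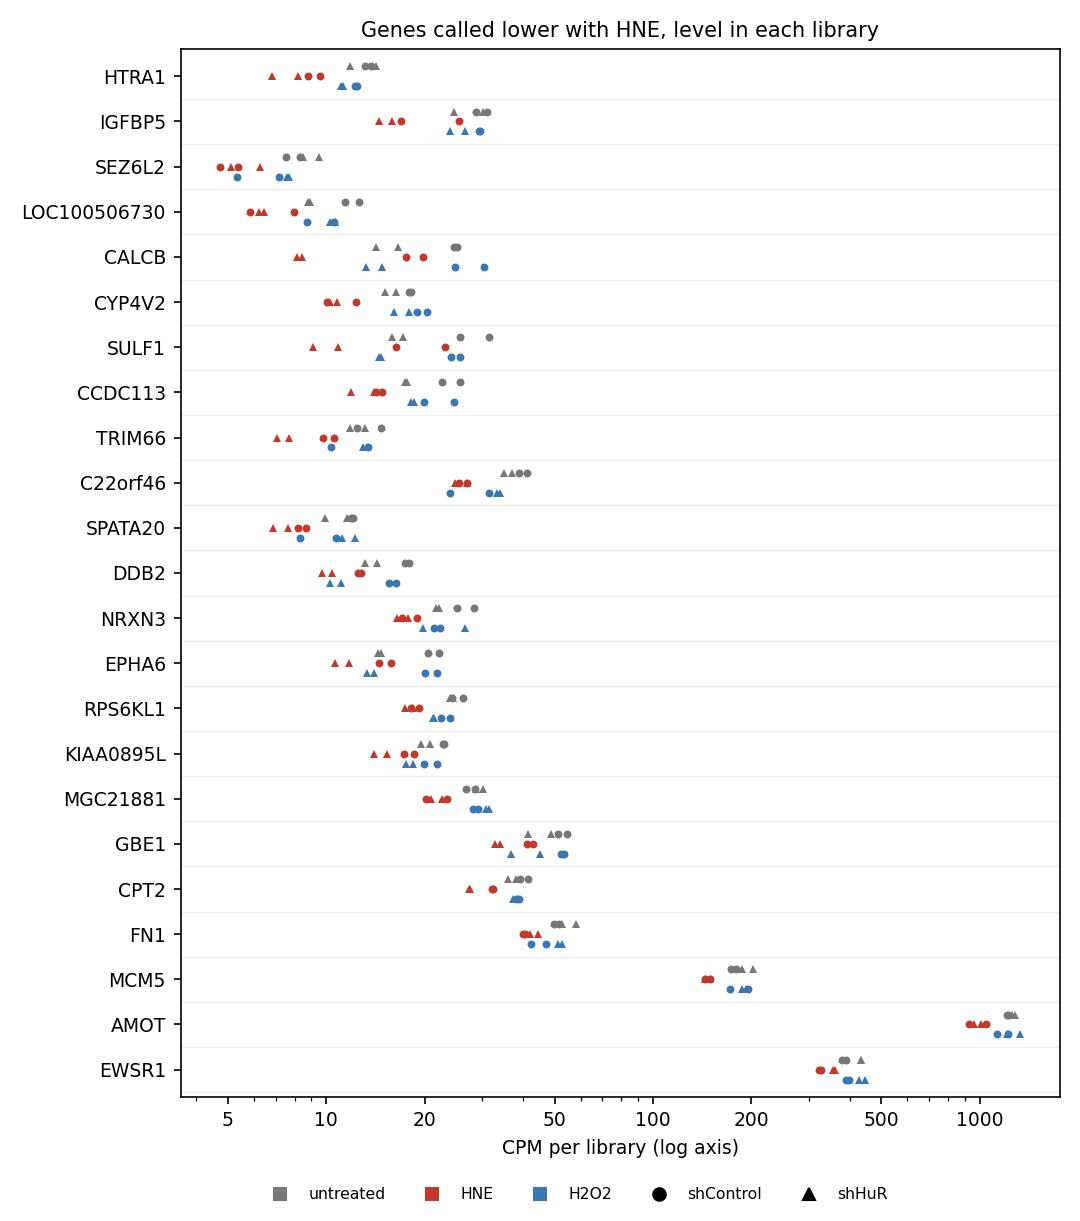
CPM on a log axis in each of the 12 libraries for the 23 genes that fell with HNE, 1 row per gene, with colours for treatment (grey untreated, red HNE, blue H2O2) and shapes for line (circle shControl, triangle shHuR). Red points lie left of all grey points in 18 genes and overlap them in 5 (CALCB, GBE1, SULF1, IGFBP5 and EPHA6).

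MCM5, a subunit of the replicative helicase, stood at 180, 173, 187 and 202 CPM untreated and 150, 145, 145 and 149 CPM with HNE (log2 fold change -0.33, SE 0.0537, edgeR adjusted p = 0.0270). Of 19 tested S phase and mitosis genes it was the only one called by edgeR (background 0.146% lower). An estimate above 0 was found for 6 of them (background 50.1%), and the median was -0.09. DESeq2 called 1 lower and 1 higher, as did edgeR without replicate 2 of HNE-treated shControl cells. The uncalled ones pointed both ways: CCNE2, a G1/S cyclin, had -0.26 (adjusted p = 0.190) and AURKA, a mitotic kinase, had 0.20 (adjusted p = 0.153). DDB2, a damage-recognition protein of nucleotide excision repair and a p53 target, stood at 17.4 and 17.9 CPM in untreated and 12.7 and 12.5 CPM in HNE-treated shControl cells, and at 13.1 and 14.3 CPM in untreated and 9.67 and 10.4 CPM in HNE-treated shHuR cells (-0.47, SE 0.0803, adjusted p = 0.0344). It was the only one of 19 tested p53 targets called by edgeR or DESeq2, and edgeR called 2 lower without replicate 2 of HNE-treated shControl cells. The background of edgeR calls was again 0.146% lower. The p53 list had 3 estimates above 0 (background 50.1%) and a median of -0.10. XPC, another repair protein, had -0.19 (adjusted p = 0.200) and CDKN1A, the cell cycle inhibitor p21, 0.07 (adjusted p = 0.784).

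Several lower genes are known from the nervous system. SEZ6L2, a neuronal membrane protein, stood at 8.30, 7.53, 8.48 and 9.47 CPM untreated and 4.74, 5.36, 5.11 and 6.28 CPM with HNE (log2 fold change -0.65, SE 0.115, edgeR adjusted p = 0.0358). NRXN3, a presynaptic adhesion protein, stood at 28.4, 25.1, 22.1 and 21.7 CPM untreated and 18.9, 17.0, 17.8 and 16.5 CPM with HNE (-0.46, SE 0.0803, adjusted p = 0.0344). Neither gene had overlapping groups. CALCB, a calcitonin gene-related peptide, stood at 24.6 and 25.2 CPM in untreated and 17.5 and 19.7 CPM in HNE-treated shControl cells, and at 16.6 and 14.2 CPM in untreated and 8.14 and 8.40 CPM in HNE-treated shHuR cells (-0.64, SE 0.105, adjusted p = 0.0284). EPHA6, an ephrin receptor, fell by 0.44 on the log2 scale (adjusted p = 0.0410). On the neural and neuroendocrine list, SEZ6L2 and CALCB were the only calls by edgeR among 18 tested genes (background 0.146% lower). The list was written with both known to fall. Of its 18 tested genes 7 had an estimate above 0 (background 50.1%), and the median was -0.15. DESeq2 called 3 lower and 1 higher. Without replicate 1 or 2 of HNE-treated shControl cells the edgeR calls were 1 of 18 and 3 of 19 tested, all lower, and the medians -0.09 and -0.05.

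Of the remaining lower genes, AMOT and EWSR1 had the highest deposited FPKM (scaled to gene length), 185 and 169 on average in untreated cells. AMOT, angiomotin, a regulator of the Hippo pathway, stood at 1209, 1219, 1252 and 1286 CPM untreated and 1048, 926, 1012 and 961 CPM with HNE (log2 fold change -0.33, SE 0.0501, edgeR adjusted p = 0.0226). EWSR1, an RNA-binding protein, moved from 379, 390, 433 and 432 CPM to 326, 322, 355 and 360 CPM (-0.26, SE 0.0458, adjusted p = 0.0360), the smallest change of the 39. Neither had overlapping groups. C22orf46 had the smallest p of the 23, with 38.9, 41.2, 35.1 and 37.1 CPM untreated and 26.9, 25.4, 27.0 and 24.7 CPM with HNE (-0.55, SE 0.0674, adjusted p = 0.00495). The other 7, each with no overlap between groups, were CCDC113 (-0.59), LOC100506730 (-0.64), TRIM66 (-0.58), SPATA20 (-0.53), RPS6KL1 (-0.43), KIAA0895L (-0.40) and MGC21881 (-0.39), with adjusted p from 0.0260 to 0.0479.

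Lists for the other stress pathways gave almost no calls. Of 21 heat-shock (HSF1) targets tested 0 were called in either direction by edgeR, against 10 higher and 1 lower at an unadjusted p under 0.05 (backgrounds 5.96% and 6.34%), with 17 estimates above 0 and a median of 0.13. DESeq2 called 2 of them higher, edgeR 2 without replicate 1 of HNE-treated shControl cells and 3 with no filter on low counts, and limma 0. HSPA1B, an inducible HSP70, had a log2 fold change of 0.27 (SE 0.0720, adjusted p = 0.174), DNAJB1, its J-domain partner, 0.23 (adjusted p = 0.209) and HSPA4, a nucleotide exchange factor for HSP70, 0.26 (adjusted p = 0.139). HSPA1A and HSPA1B are near-identical copies, so their counts are uncertain. Of 27 ATF4 targets 0 were called (2 higher and 1 lower unadjusted, 1 higher by DESeq2, 0 by limma), with 14 estimates above 0 and a median of 0.01 (10 and -0.05 without replicate 2 of HNE-treated shControl cells), and DDIT3 and CHAC1 had 0.11 and -0.20 (adjusted p = 0.740 and 0.613). Of 19 endoplasmic reticulum stress targets 0 were called (1 higher and 0 lower unadjusted, 0 by DESeq2 or limma), the median was 0.03 (0.07 and 0.01 without replicates 1 and 2 of HNE-treated shControl cells), and the chaperone HSPA5 had 0.08 (adjusted p = 0.762). Of 9 NF-kB targets edgeR, DESeq2 and limma called 0, with 0 at an unadjusted p under 0.05 and a median of -0.13. Of 12 enzymes that clear HNE itself 0 were called (1 higher and 1 lower unadjusted, 0 by DESeq2 or limma): GSTA4, the glutathione transferase best known for HNE, had -0.12 (adjusted p = 0.547) and ALDH2, which oxidises aldehydes in mitochondria, had 0.02 (adjusted p = 0.932). Without replicate 2 of HNE-treated shControl cells edgeR called 1 of these 12 lower and the list median was -0.05, against 0.02 with all libraries, and with no filter on low counts 1 higher and 1 lower.

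Estimates for proteasome genes shared a direction, while single genes missed the threshold. All 33 tested subunits and assembly factors had an estimate above 0 (50.1% of all genes did). The estimates ran from 0.02 to 0.22 with a median of 0.12, and 0 passed edgeR's adjusted threshold. At an unadjusted p under 0.05 there were 15 higher (background 5.96%) and 0 lower (background 6.34%). DESeq2 and limma also called 0, and edgeR with no filter on low counts called 2 higher. PSMD4, a ubiquitin receptor, had 0.22 (SE 0.0803, adjusted p = 0.292), PSMD1 had 0.17 (adjusted p = 0.233) and PSMB1 had 0.19 (adjusted p = 0.255). All 4 HNE libraries lay above all 4 untreated ones for 1 of the 33 genes, PSME4 (3.03%, near the background of 2.25%). By line, 28 estimates were above 0 in shControl and 33 in shHuR. With 1 library left out the number above 0 was 29 to 33, the lowest without replicate 2 of the untreated shHuR cells. These genes are expressed at related levels and are not independent observations. Relative to the untreated mean of each line, the list median ran from -0.07 to 0.07 over the untreated libraries and from 0.06 to 0.18 over the HNE libraries. These ranges overlapped across lines but not within a line. In shControl it was 0.06 and 0.18 with HNE against -0.03 and 0.03 untreated, and in shHuR 0.11 and 0.12 against 0.07 and -0.07. The untreated values mirror each other because their own mean is the baseline.

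**Figure D3:**
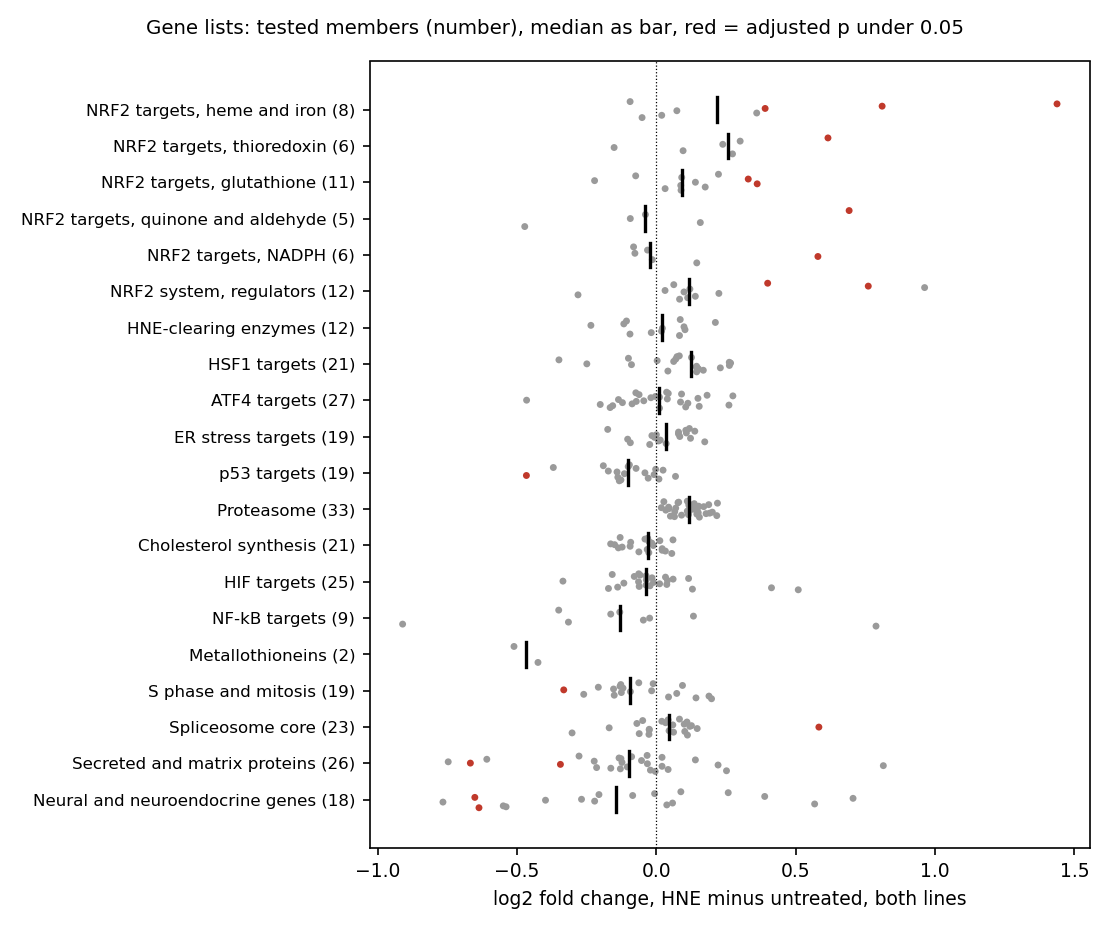
Log2 fold change with HNE against untreated cells (horizontal axis) for each tested member of 20 gene lists, 1 row per list with the number tested; bars are list medians and red points have an adjusted p under 0.05. The called points right of 0 lie mainly in the NRF2 rows, and the proteasome row lies wholly right of 0 between 0.02 and 0.22.

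**Figure D4:**
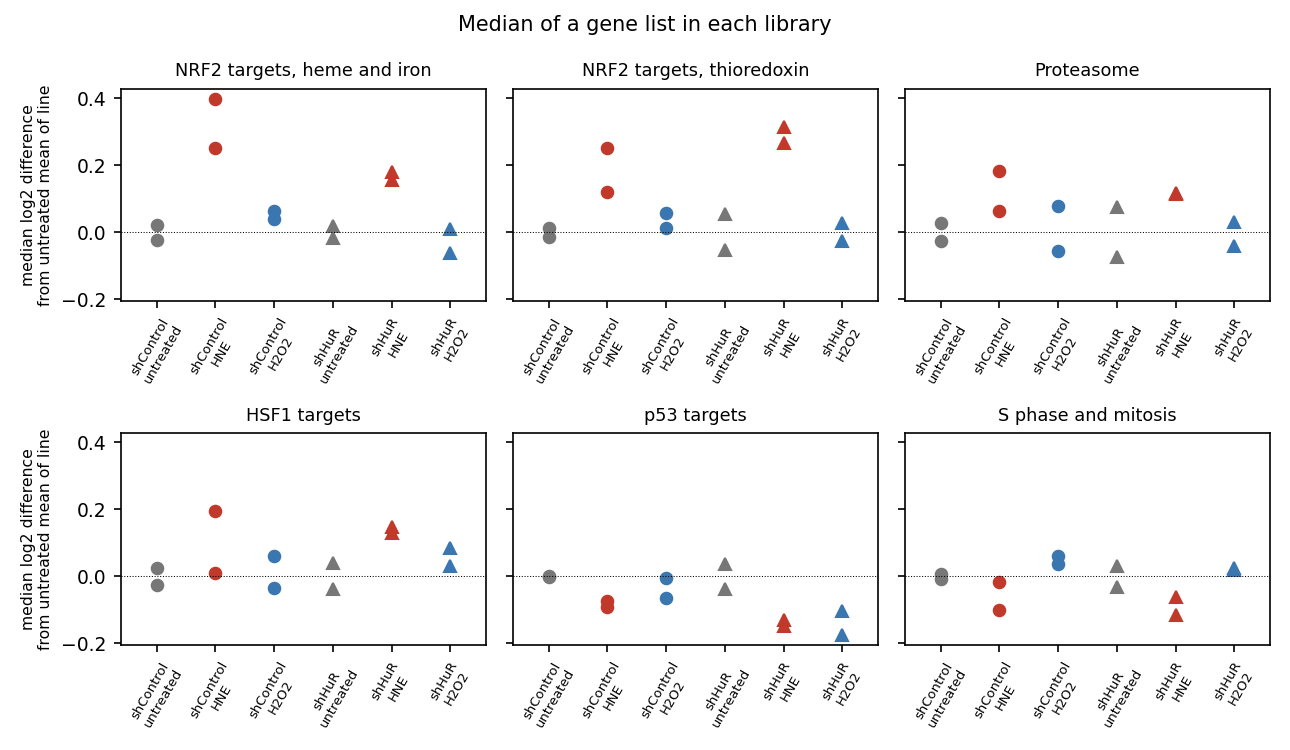
Median over a list of the log2 CPM difference from the untreated mean of the same line (vertical axis), in each of the 12 libraries, for 6 lists; circles are shControl, triangles shHuR, and colours give the treatment. For the heme and iron list the HNE libraries sit at 0.15 to 0.40 and the untreated ones at -0.023 to 0.023. For the proteasome the untreated libraries spread from -0.07 to 0.07. The 2 untreated values of each line mirror each other around 0 because their own mean is the baseline, which holds them near 0.

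The H2O2 libraries gave another reference for the same HNE libraries, so the comparisons share samples and their values are only set side by side. Against H2O2, 18 of 15769 genes were called (0.114%), 11 higher (0.0698%) and 7 lower (0.0444%). HMOX1 stood at 10.4, 10.4, 9.36 and 11.8 CPM with H2O2, close to untreated cells, and the difference of HNE from H2O2 was 1.43 on the log2 scale (edgeR adjusted p = 3.91e-05). For FTL the H2O2 values were 119, 131, 114 and 120 CPM (0.76, adjusted p = 0.000562), and for TXNRD1 they were 271, 265, 237 and 245 CPM (0.58, adjusted p = 0.00103). PIR had a difference of 0.72 (adjusted p = 0.00103) and CYP4V2 of -0.75 (adjusted p = 0.00437). In each of these 5 genes the H2O2 libraries lay apart from the HNE libraries. GCLM lay between within each line: its H2O2 values were 38.9, 36.4, 44.0 and 44.9 CPM, and its difference was 0.22 (SE 0.0620, adjusted p = 0.155). C22orf46 had 24.0, 31.5, 33.4 and 33.9 CPM with H2O2, overlapping the HNE values (-0.23, SE 0.0927, adjusted p = 0.284), and DDB2 had 16.4, 15.5, 10.2 and 11.1 CPM (-0.22, SE 0.0906, adjusted p = 0.307).

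The lines were compared in the size of their response by a line-by-treatment interaction term. By edgeR 0 of 15780 genes were called (0%), with 1028 at an unadjusted p under 0.05 (6.51%), and DESeq2 called 2. Without replicate 1 of the HNE-treated shControl cells, edgeR called 321. HMOX1 had log2 fold changes of 1.48 in shControl and 1.40 in shHuR, a difference of -0.08 (SE 0.196, adjusted p = 0.949), and FTL had 0.74 and 0.88 (difference 0.13, SE 0.130, adjusted p = 0.849). TXNRD1 had 0.50 and 0.73 (difference 0.24, SE 0.118, adjusted p = 0.769). Of the 39 called genes, CALCB (-0.42 in shControl and -0.90 in shHuR, unadjusted p = 0.0146) and DFFA (0.25 and 0.48, unadjusted p = 0.0490) had an unadjusted p under 0.05. A p above the threshold does not show that the lines responded alike.

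**Figure D5:**
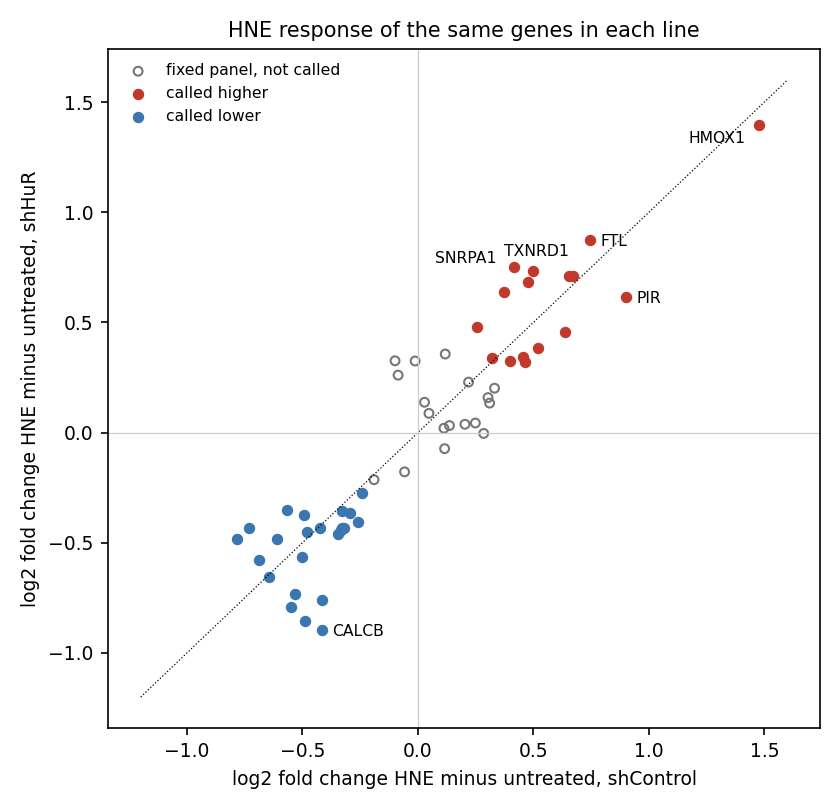
Log2 fold change with HNE in shControl (horizontal axis) against that in shHuR (vertical axis) for the genes named here, with the called genes coloured and the dotted line marking equal response. HMOX1 lies farthest from 0 in both lines, at 1.48 and 1.40, and CALCB lies lower in shHuR (-0.90) than in shControl (-0.42).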

How the data were processed

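Total RNA depleted of ribosomal RNA was sequenced as single-end 75 bp reads from directional libraries, per the labels' protocols. The submitters' processing notes name cutadapt 1.8, Bowtie2 2.2, TopHat2 2.1, Cufflinks 2.2, Cuffnorm and Cuffdiff and the builds GRCh37 and hg19, without roles. Whether counting used strand is not given in the sources used here, so overlapping genes on opposite strands may share reads. The authors deposited estimated counts per gene symbol (23615 genes), of which 2.09% of values, in 672 genes, were not whole (tolerance 1e-09), and these were rounded. The authors also deposited FPKM values, scaled to gene length and depth, which were used for levels and in alternative fits.

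Genes were kept by edgeR's filterByExpr (minimum count 10, by group) and scaled by TMM (factors 0.966 to 1.03 over the 8 libraries). HNE was compared with untreated, and with H2O2, by edgeR's quasi-likelihood F-test with line as covariate (5 residual degrees of freedom) and Benjamini-Hochberg adjustment over all genes tested, threshold 0.05. The response difference between lines was the interaction in the same 8 libraries. Standard errors (SE) were obtained as the absolute log2 fold change over √F. CPM shown are scaled by TMM over all 12 libraries. The common dispersion was 0.00735, a coefficient of variation of 8.58% between replicates.

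Genes named are every gene called against untreated cells, a panel of 26 genes whatever their values, and up to 3 members of each of 25 lists with the smallest p; others are stated as chosen after their values were seen, or are list members given for completeness. Some genes under this rule are not reported here. Members and lists were chosen with earlier results of these data known. The lists cover NRF2 targets (heme and iron, thioredoxin, glutathione, quinone and aldehyde, NADPH), NRF2 regulators, HNE-clearing enzymes, HSF1, ATF4, endoplasmic reticulum stress, p53, HIF and NF-kB targets, the proteasome, cholesterol synthesis, metallothioneins, S phase and mitosis, the spliceosome, secreted and matrix proteins, neural genes and markers of 5 cell types. They are described by counts and medians, with no set test. Over all genes tested against untreated cells, edgeR called 0.101% higher and 0.146% lower, and 50.1% had an estimate above 0.

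Alternatives were DESeq2's Wald test, DESeq2 size factors, library size alone, no filter, a mean CPM of at least 1, replicate blocks, all 12 libraries, limma on log2(FPKM + 1) and log2(FPKM + 0.1) above a mean FPKM of 1 and the former unfiltered, genes with whole counts, removal of small RNA genes, and leaving out each library. The scripts were tested on simulated data. Promoters came from RefSeq (GRCh38.p14), matched by symbol or synonym. Tools were R 4.3.3, edgeR 4.0.16, limma 3.58.1, DESeq2 1.42.0 and Python 3.11.15 with pandas 2.3.3 and matplotlib 3.10.9.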

Additional observations from a re-analysis of the deposited data

Results flagged for a closer look

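Dixon's test at the 95% level was applied to 114 groups of 4 libraries (57 genes). In 4 genes (3.51% of groups) 1 library lay far from the other 3 of its treatment. For 4 like libraries chance alone gives about 1 in 20. Each group here pooled 2 libraries of each line, so a difference between lines can widen the range and hide an outlying library. SNRPA1 was at 105.45 CPM in replicate 1 of HNE-treated shControl cells, against 141, 144 and 148 CPM in the other HNE libraries. RPS6KL1 was at 26.222 CPM in replicate 1 of untreated shControl cells, against 24.0 to 24.4 CPM in the other untreated libraries. C12orf57 was at 15.702 CPM in replicate 2 of untreated shHuR cells, against 18.1 to 18.4 CPM. BACH1 was at 111.0 CPM in that same library, against 120 to 122 CPM.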

How the results depend on the processing

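The counts of called genes moved with the processing. For HNE against untreated (39), DESeq2 gave 181, no filter 334, all 12 libraries 68, and limma 2 with log2(FPKM + 1), 4 with log2(FPKM + 0.1) and 1 unfiltered. For HNE against H2O2 (18), DESeq2 gave 325, DESeq2 size factors 29, no filter 668, a mean CPM of at least 1 gave 30, all 12 libraries 84, limma 5, 6 and 2 in the same order, whole-count genes 39 and removal of small RNA genes 55. For the line difference (0), DESeq2 gave 2, no filter 97, limma 5, 5 and 6, and removal of small RNA genes 1. With the replicate number as a block the counts were 14, 10 and 0, and with the number within each line as a block 59 and 5. Deviations of same-numbered HNE and untreated libraries correlated at 0.0877 in shControl and 0.0597 in shHuR. With 2 libraries per group these values cannot show whether the numbers pair the samples, and the labels do not say. The block within lines could not be fitted for the line difference.

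With 1 library left out the counts ran from 3 to 168, from 5 to 267 and from 0 to 321. Against untreated cells they were 168 and 64 without replicates 2 and 1 of HNE-treated shControl cells, 11 and 5 without replicates 1 and 2 of HNE-treated shHuR cells, 8 and 3 without those of untreated shHuR cells, and 9 and 7 without those of untreated shControl cells. Against H2O2 they were 267 and 70 without replicates 1 and 2 of HNE-treated shControl cells and 5 to 9 otherwise. For the line difference they were 321 and 3 without those same libraries, 1 without replicate 2 of HNE-treated shHuR cells and 0 otherwise. The cause was not tested.

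Over 818 alternative values of the 39 called genes, 339 lost the threshold and 0 changed sign. HMOX1 stayed past the threshold in 21 of 21, FTL in 20, TXNRD1 and C22orf46 in 18, and GCLM in 9. Of 378 values of uncalled panel genes, 4 passed (HSPA1B and SLC7A11) and 4 changed sign. Without 1 library ALDH2 ran from -0.0525 to 0.0788, below 0 without replicate 2 of HNE-treated shControl (-0.0525), untreated shControl (-0.0140) or untreated shHuR cells (-0.00154), and HSPA5 ran from -0.0617 to 0.186, below 0 without replicate 2 of HNE-treated shControl cells. Counting error weighs most on low genes such as NQO1 (4.52 to 11.1 CPM), and the smallest called change was -0.26 on the log2 scale.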

Other observations

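TXNIP and PROCR passed the threshold for HNE against H2O2 and not for HNE against untreated cells; they were chosen after their values were seen, and the difference between the comparisons was not tested. TXNIP, an inhibitor of thioredoxin whose transcription follows glucose supply, stood at 8.45, 7.96, 14.7 and 15.5 CPM in HNE libraries and at 12.1, 10.7, 21.9 and 24.0 CPM in H2O2 libraries, a log2 difference of -0.54 (SE 0.0860, edgeR adjusted p = 0.0315). Its untreated values of 10.7, 9.96, 20.9 and 20.9 CPM gave -0.41 for HNE against untreated (adjusted p = 0.0652). PROCR, the endothelial protein C receptor, had a log2 difference from H2O2 of 0.65 (adjusted p = 0.0480) and from untreated of 0.35 (adjusted p = 0.267). The comparisons share the HNE libraries.

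Of 25 HIF targets tested, 9 had an estimate above 0 for HNE against untreated cells (median -0.04) and 21 for HNE against H2O2 (median 0.11, background 50.6% of genes), with 0 called by edgeR in either comparison. Against untreated cells 1 was higher and 2 were lower at an unadjusted p under 0.05, and DESeq2 called 0. Relative to the untreated mean of each line, the list median was -0.29 and -0.16 in the H2O2 libraries of shHuR, 0.02 and -0.04 in those of shControl, and -0.07 to 0.02 in the 4 HNE libraries. ADM, adrenomedullin, had the smallest p of them against untreated cells, with a log2 fold change of 0.51 (SE 0.159, adjusted p = 0.233). Both metallothioneins that could be tested had estimates below 0, MT2A at -0.51 (SE 0.184, adjusted p = 0.284) and MT1X at -0.42 (SE 0.170, adjusted p = 0.336). Of 21 cholesterol synthesis genes 6 had an estimate above 0 over both lines (median -0.03), 14 in shControl (median 0.03) and 2 in shHuR (median -0.10), a difference that was not tested. Without replicate 2 of HNE-treated shControl cells 1 of 21 was above 0 (median -0.08). HMOX1, which rose the most of the called genes, and MCM5, which fell, are neighbouring genes on chromosome 22 in the RefSeq annotation of GRCh38.p14.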
